A study of Mus musculus with 12 samples.

Results

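The 9 genes described here carry glycine transmission and the first step of glycine breakdown: Slc6a5, Slc6a9, Slc32a1, Glra1, Glra2, Glra3, Glrb, Gphn and Gldc. They were taken by gene symbol, with no use of their values, and each symbol was found once among the 38924 genes of the files. All 9 passed the filter on low counts, which kept 17995 genes for testing. RNA came from whole spinal cord of 12 mice aged 1 week on a B6J;CAST background, 1 library per mouse. Of these mice, 6 carried the P278KY allele of Gars over a wt allele (3 labelled female, 3 labelled male) and 6 were wt (3 labelled female, 3 labelled male). Gars encodes glycyl-tRNA synthetase, which charges tRNA with glycine. Libraries are named by labelled sex, genotype and mouse number.

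Glycine is a main fast inhibitory transmitter of the spinal cord and brainstem. Slc6a5 (GlyT2) returns glycine to inhibitory terminals, Slc32a1 (VGAT) loads glycine and GABA into vesicles, and glycine opens chloride channels built from alpha subunits (Glra1, Glra2, Glra3) and the beta subunit Glrb. Glrb binds gephyrin, the scaffold encoded by Gphn, which holds the receptors at the synapse. Slc6a9 (GlyT1), found mostly on glia in the cord, clears glycine from the cleft, and Gldc is the decarboxylase of the mitochondrial glycine cleavage system. In rodents Glra2 is the main alpha subunit before birth and Glra1 takes over after it. Mutations of human GLRA1, GLRB and SLC6A5 cause startle disease, and mutations of human GLDC cause glycine encephalopathy.

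Library totals ran from 27713981 to 43219891 expected counts. Sex marks went against the label in 2 libraries, both wt. Xist, the RNA of X inactivation, stood at 0.533 CPM and Y-linked Ddx3y at 45.1 CPM in female wt 14. In male wt 19, Xist stood at 860 CPM and Ddx3y at 0.0233 CPM. The edgeR genotype results of the glycine genes described here are therefore given with and without these 2 libraries. The DESeq2 results, the transcript lengths, the shares of the alpha subunits and the lists of other genes are given only with both included. Gars itself averaged 131 ± 7.36 CPM in P278KY cords and 124 ± 6.74 CPM in wt cords (SD, n = 6 each), which does not check the genotype, since the count does not separate the alleles.

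The 9 genes lie on 9 different chromosomes, and none shares the chromosome of Gars. Of them, 8 had a promoter entry in RefSeq (GRCm38.p6). The 250 bases before the start are shown for the receptor subunits Glra2, Glra3 and Glrb, which neurons use, and for Gldc, so that genes with different roles can be read side by side. Capitals mark matches on either strand to 3 promoter motifs. The TATA box was searched as TATAAA. The CCAAT box was searched by its own 5 letters. The GC box was searched as GGGCGG. No 2 matches overlapped. The windows are chrX:165327394-165327643 on the minus strand for Glra2, chr8:55940168-55940417 on the plus strand for Glra3, chr3:80913661-80913910 on the minus strand for Glrb and chr19:30175442-30175691 on the minus strand for Gldc.
Glra2: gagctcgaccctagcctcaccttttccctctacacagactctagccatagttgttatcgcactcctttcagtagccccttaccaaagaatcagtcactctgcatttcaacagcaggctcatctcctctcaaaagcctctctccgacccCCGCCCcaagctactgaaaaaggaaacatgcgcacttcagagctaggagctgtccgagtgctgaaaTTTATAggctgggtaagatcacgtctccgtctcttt
Glra3: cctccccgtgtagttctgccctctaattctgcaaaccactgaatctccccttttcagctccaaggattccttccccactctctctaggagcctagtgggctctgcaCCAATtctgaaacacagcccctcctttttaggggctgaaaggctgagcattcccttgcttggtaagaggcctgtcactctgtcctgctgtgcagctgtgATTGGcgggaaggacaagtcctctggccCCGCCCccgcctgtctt
Glrb: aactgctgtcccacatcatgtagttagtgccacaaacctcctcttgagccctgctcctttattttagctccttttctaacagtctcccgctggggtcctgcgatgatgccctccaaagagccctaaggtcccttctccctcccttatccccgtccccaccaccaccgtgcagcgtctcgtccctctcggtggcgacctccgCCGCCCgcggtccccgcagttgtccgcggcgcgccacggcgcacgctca
Gldc: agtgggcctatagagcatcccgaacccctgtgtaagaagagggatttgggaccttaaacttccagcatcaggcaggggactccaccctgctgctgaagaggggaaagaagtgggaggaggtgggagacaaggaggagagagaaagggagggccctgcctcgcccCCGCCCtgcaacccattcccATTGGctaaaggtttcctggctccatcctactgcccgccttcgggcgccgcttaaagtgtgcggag

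The Glra2 window held a match to the TATA box 36 to 31 bases before the start, and the other 3 windows held none. This match lay on the strand opposite to the gene, which itself reads TTTATA there. Over 32851 mouse windows of the same length, 12.4% held a TATA box, 33.8% a CCAAT box and 32.7% a GC box. All 4 printed windows held a GC box, and those of Glra3 and Gldc also held a CCAAT box. Among the windows not printed, those of Gphn and of the first start of Slc6a9 held a GC box. Those of Slc6a5, of Slc32a1 and of the other starts of Slc6a9 held none of these motifs. The letters TGATGNAAN, a form of the element bound by the stress factor ATF4, stood in no window of the 8 genes and in 3.44% of all windows. The G+C content was 50.4% for Glra2, 56.0% for Glra3, 62.4% for Glrb and 59.6% for Gldc, against a median of 52.4% over all windows.

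In TPM, which divides by transcript length and so allows genes to be compared, the 9 genes spanned a wide range. Slc6a9 stood highest at 192 ± 12.5 TPM over the 12 libraries, above 96.6% of the genes tested. Glrb followed at 120 ± 13.3 TPM, then Slc32a1 at 73.8 ± 10.8, Slc6a5 at 68.5 ± 10.4, Gphn at 47.3 ± 4.14, Glra1 at 44.6 ± 7.82 and Glra2 at 32.5 ± 5.74 TPM (SD, n = 12). Gldc at 7.94 ± 0.50 TPM and Glra3 at 7.14 ± 1.93 TPM stood lowest. Gldc exceeded Glra3 in 8 of the 12 libraries and Gphn exceeded Glra1 in 10, so the neighbours in these pairs overlapped. The length used for Glra3 in the files, 1884 to 1957 bases, is shorter than any of its transcripts in GENCODE M21, which bears on its TPM. Whether it also bears on its counts was not tested.

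**Figure D1:**
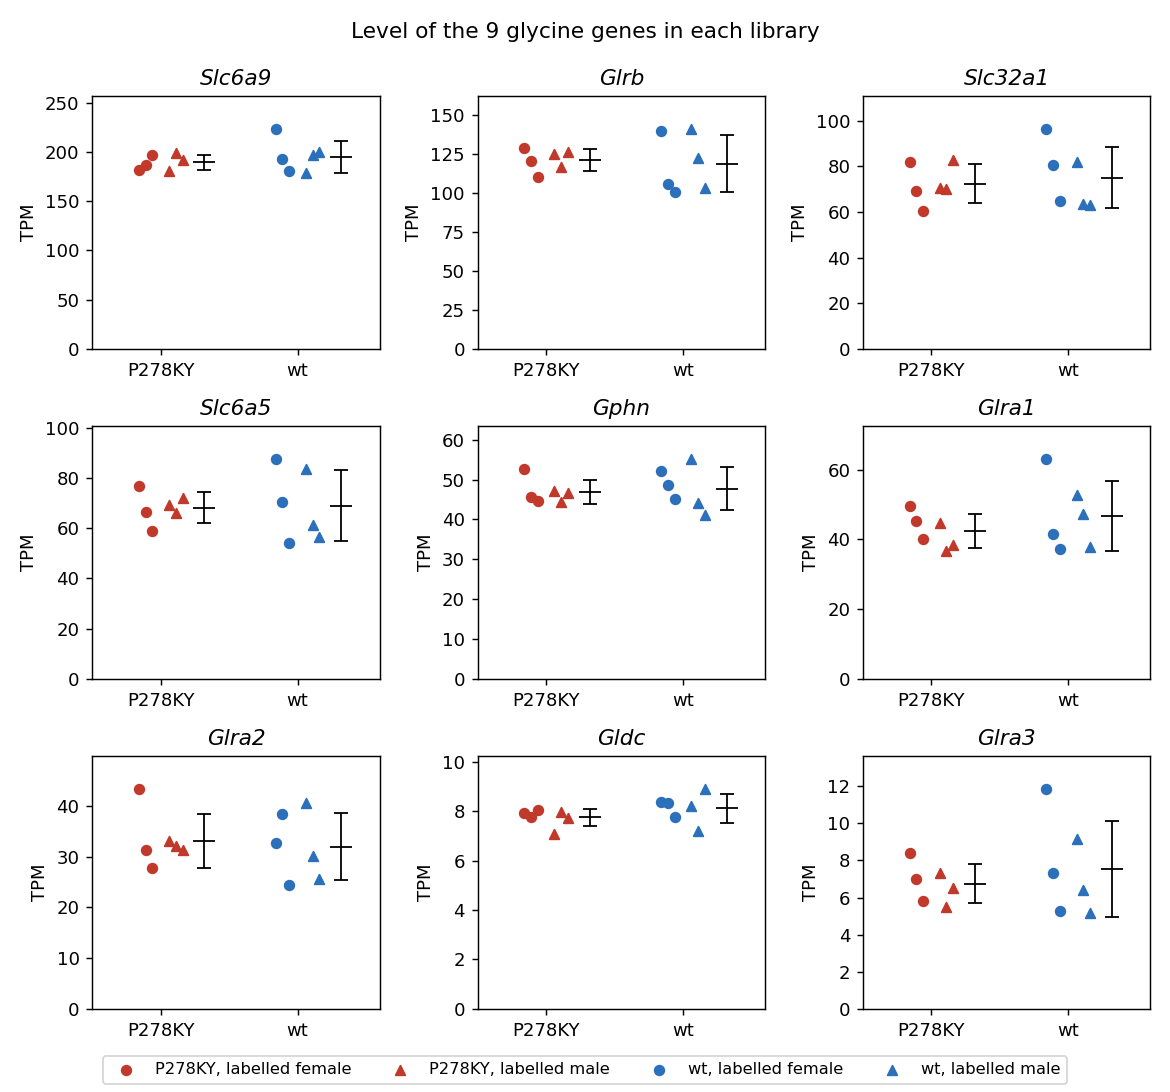
TPM of each of the 9 genes in each library, P278KY left and wt right, with circles for mice labelled female and triangles for mice labelled male; bars give the mean and SD of 6 mice. The genotypes overlap in all 9 genes, and Slc6a9 is the highest of them at 192 ± 12.5 TPM over all libraries.

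None of the 9 genes differed between P278KY and wt cords beyond the spread between mice. With edgeR's quasi-likelihood test and Benjamini-Hochberg adjustment, 0 of the 9 passed 0.05, against 1 of 17995 genes in all (0.00556%). None had an unadjusted p under 0.05, which 4.09% of all genes had, and DESeq2 also called 0 of the 9, against 0.185% of all genes (4.45% by unadjusted p). No member's CPM separated the genotypes without overlap, as 0.222% of all genes did. The median log2 fold change (P278KY over wt) of the 9 was -0.01, equal to that of all genes tested at this precision, with 4 above 0 and 5 below. In whole tissue, fewer cells of a type and less RNA per cell cannot be told apart.

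**Figure D2:**
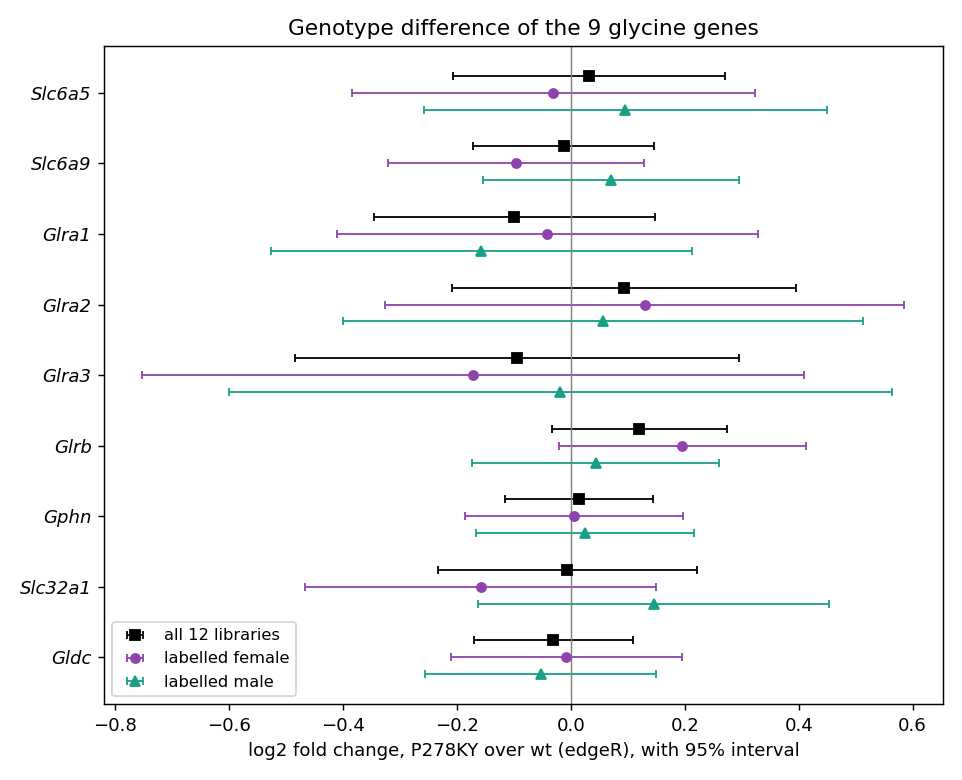
Log2 fold change of P278KY over wt from edgeR with its 95% interval, for each of the 9 genes, in all 12 libraries (squares) and among mice labelled female (circles) or male (triangles). Every interval holds 0, and the interval over all libraries is narrowest for Gphn, at -0.11 to 0.15.

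Among the transporters, Slc6a5 stood at 58.9, 67.8 and 77.0 TPM (lowest, median and highest) in P278KY cords, against 53.9, 65.7 and 87.6 TPM in wt cords. The P278KY values lay inside the wt range. The fold change was 1.02 (95% interval 0.867 to 1.21), and the adjusted p was 1.00 by edgeR for this and each other member. Slc6a9 stood at 181, 190 and 199 TPM in P278KY cords, against 178, 195 and 223 TPM in wt cords. Here too the wt range contained the P278KY range, and the fold change was 0.991 (0.888 to 1.11). Counts of Slc6a9 were fractional in all 12 libraries, and 2 coding genes on the other strand, Ccdc24 and B4galt2, overlap it. Slc32a1 stood at 60.3, 70.3 and 82.7 TPM in P278KY cords, against 63.3, 72.7 and 96.4 TPM in wt cords. The groups overlapped, and the fold change was 0.996 (0.850 to 1.17). Without the 2 sex-discordant libraries, the log2 fold change was -0.09 ± 0.09 (SE) for Slc6a5, where it was 0.03 ± 0.11 with them. It was -0.02 ± 0.08 without them and -0.01 ± 0.07 with them for Slc6a9, and -0.10 ± 0.11 without them and -0.01 ± 0.10 with them for Slc32a1.

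Among the receptor subunits, Glra1 stood at 36.6, 42.4 and 49.7 TPM in P278KY cords, against 37.2, 44.5 and 63.1 TPM in wt cords. Both ranges overlapped, with the highest value in female wt 1, and the fold change was 0.934 (0.787 to 1.11). Without the libraries labelled female wt 14 and male wt 19, its log2 fold change was -0.22 ± 0.10 (SE), with an unadjusted p of 0.0421 and an adjusted p of 0.836 by edgeR. Of 18168 genes then tested, 0 (0%) passed 0.05 and 1047 (5.76%) had an unadjusted p under 0.05, with Glra1 the single member among them. The count of Glra1 calls was thus 0 in both fits, and over all the alternatives tried its adjusted p was never lower than 0.836.

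Glra2 stood at 27.7, 31.7 and 43.4 TPM in P278KY cords, against 24.3, 31.3 and 40.5 TPM in wt cords. The highest P278KY value came from female P278KY 4, and the groups overlapped (fold 1.07, 0.865 to 1.32). Its log2 fold change was 0.09 ± 0.14 with all libraries and -0.05 ± 0.12 without the sex-discordant pair. Glra3, the least abundant subunit gene among the 9, stood at 5.48, 6.74 and 8.38 TPM in P278KY cords, against 5.17, 6.86 and 11.9 TPM in wt cords. Its interval was the widest of the 9, at 0.715 to 1.23-fold, and without both sex-discordant libraries its log2 fold change was -0.28 ± 0.15 (SE). Glrb stood at 110, 123 and 129 TPM in P278KY cords, against 101, 114 and 141 TPM in wt cords. It had the smallest genotype p of the 9 (fold 1.09, 0.977 to 1.21), at place 1696 among all genes, and its log2 fold change was 0.04 ± 0.06 without the 2 libraries.

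The make-up of the alpha subunit transcripts was close between the genotypes. The alpha sum was taken over Glra1, Glra2 and Glra3, without the scarce Glra4. The short length used for Glra3 bears on this sum. Glra1 held 51.7 ± 2.42% of the summed alpha TPM in P278KY cords and 54.2 ± 3.97% in wt cords (SD, n = 6 each). Glra2 held 40.2 ± 2.57% in P278KY cords and 37.3 ± 4.51% in wt cords, and Glra3 held 8.18 ± 0.460% in P278KY cords and 8.56 ± 1.31% in wt cords. The wt extremes came from mice of the same labelled group, with Glra1 at 47.7% in female wt 2 and 58.7% in female wt 1. Glra1 exceeded Glra2 in all 12 libraries. The alpha sum over Glrb was 0.679 ± 0.063 in P278KY cords and 0.723 ± 0.066 in wt cords.

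**Figure D3:**
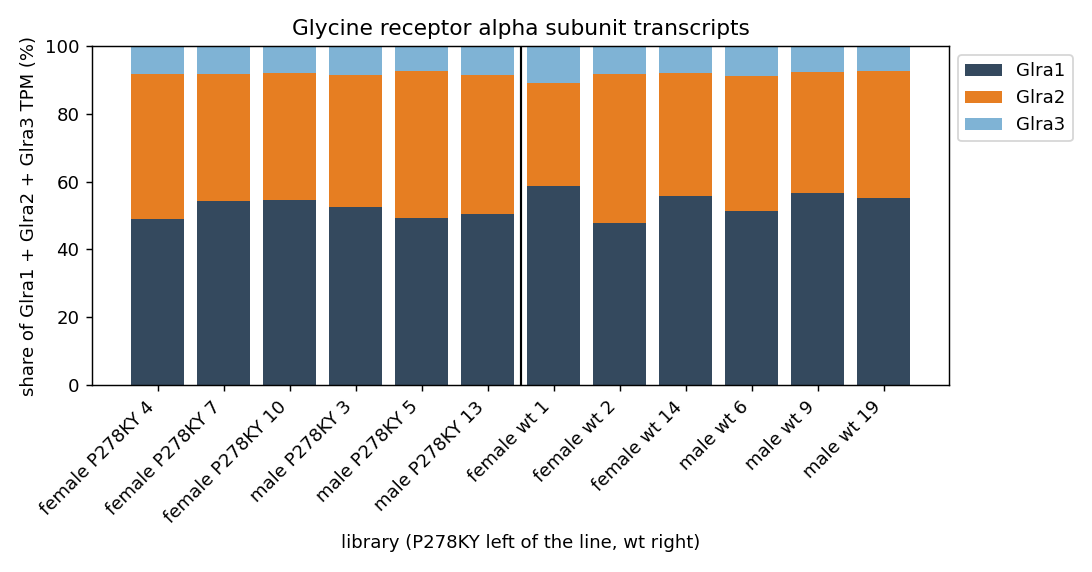
Share of Glra1, Glra2 and Glra3 in their summed TPM in each library, P278KY left of the line and wt right. Glra1 held 47.7% (female wt 2) to 58.7% (female wt 1) and was the largest share in every library.

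The scaffold gene Gphn stood at 44.4, 46.1 and 52.6 TPM in P278KY cords, against 41.0, 46.8 and 55.2 TPM in wt cords. The wt range again contained the P278KY range, and the fold change was 1.01 (0.924 to 1.11). The cleavage gene Gldc stood at 7.08, 7.84 and 8.05 TPM in P278KY cords, against 7.18, 8.26 and 8.91 TPM in wt cords. The groups overlapped, and the fold change was 0.979 (0.889 to 1.08). Without the sex-discordant libraries, the log2 fold change was -0.05 ± 0.06 for Gphn and -0.00 ± 0.06 for Gldc (SE). Gphn and Gldc varied least of the 9, with coefficients of variation of their CPM over all libraries of 6.74% and 6.80%, and Glra3 varied most at 23.3%, against a median of 11.4% over all genes tested.

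Within each labelled sex, and for the difference between the sexes in the genotype effect, edgeR called 0 of the 9 genes and 0% of all genes. An unadjusted p under 0.05 was given to 10.7% of all genes among females, to 4.91% among males and to 10.9% for the difference, and to none of the 9. These labelled sexes each hold a library whose marks are those of the other sex. Without both, edgeR called 11 of 18168 genes among females (0.0605%), 4 among males (0.022%) and 5 for the difference (0.0275%), and none of the 9 was among them. An unadjusted p under 0.05 was then given to 11% of all genes among females, 8.72% among males and 12.7% for the difference. Slc32a1 among females was the single member so counted, with a log2 fold change of -0.29 ± 0.13 (adjusted p = 0.447 by edgeR). The other members ran from -0.40 (Glra3) to 0.11 (Glrb) among females, and all 9 from -0.26 (Glra1) to 0.13 (Slc6a9) among males. Slc32a1 had the largest difference of effects: it averaged 106 ± 15.6 CPM in female P278KY and 119 ± 21.8 CPM in female wt cords, and 118 ± 9.59 CPM in male P278KY and 106 ± 10.02 CPM in male wt cords (SD, n = 3 each). The female effect minus the male effect was -0.30 ± 0.20 on the log2 scale (adjusted p = 0.615 by edgeR). Without the 2 sex-discordant libraries it was -0.39 ± 0.18 (adjusted p = 0.398). Between labelled sexes, 0% of all genes passed and 4.6% had an unadjusted p under 0.05. Glrb was the single member among these, lower in females by edgeR (log2 fold change -0.15 ± 0.07, adjusted p = 1.00). Without the sex-discordant libraries, 10 genes (0.055%) were called by sex, none of them a member, and 4.52% had an unadjusted p under 0.05. Glrb was again the single member among the last, at -0.14 ± 0.06 (adjusted p = 1.00 by edgeR).

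The transcript length that the files give for a gene follows from which of its transcripts the authors' estimate favours, and it varied for 5 of the 9 genes. Limma on log2 length called 0 of these 5, against 0.0089% of 11231 genes. Glrb came closest, with 2883, 2948 and 2965 bases in P278KY cords, against 2661, 2899 and 2974 bases in wt cords (log2 difference 0.04 ± 0.02, adjusted p = 0.968 by limma). Its ranges overlapped, and the lowest value was that of female wt 1. Slc6a9, with 12 transcripts in the files, ran between 2593 and 2824 bases in P278KY cords and between 2657 and 2785 bases in wt cords.

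Over the 12 libraries the genes used by neurons (Slc6a5, Slc32a1, Glra1, Glra2, Glra3, Glrb and Gphn) were correlated with each other to varying degrees, and r with Slc6a9 or Gldc was lower. Among those 7 genes, Pearson's r of log2 CPM ran from 0.419 to 0.899 over 21 pairs, with a median of 0.705. Between them and Slc6a9 or Gldc, r ran from -0.310 to 0.113 over 14 pairs. By r with Slc6a5, the rest of the 7 ranked from 79 (Slc32a1) to 1125 (Glra1) among 15802 genes averaging at least 1 TPM. Many genes outside the 7 thus had a higher r with Slc6a5. Without the 2 sex-discordant libraries, in which all 7 lay below their means, r among the 7 ran from 0.0676 to 0.916 with a median of 0.471, and with Slc6a9 or Gldc from -0.712 to 0.138. These are descriptions over 12 libraries that share depth, genotype and tissue makeup. Slc6a5 and Slc32a1, which serve the same terminals, had r = 0.899, and 0.916 without the 2 libraries farthest from the median of Slc6a5. Those 2 are the sex-discordant libraries. Without them r was highest for Slc6a5 with Slc32a1, and still high for Slc6a5 with Glra3 (0.859) and Gphn (0.812), for Glra1 with Glra3 (0.856) and for Glra2 with Gphn (0.827). The correlations of Glrb were lower without them. With Slc6a5 r was 0.718 over all and 0.333 without, with Glra2 0.644 and 0.217, and with Glra3 0.522 and 0.160. Without female wt 14 and female wt 2, the libraries farthest from the median of Glrb, these were 0.647, 0.813 and 0.454. The change thus depended on which libraries were left out. Glra1 with Glra2 stood at 0.449 over all libraries and 0.118 without the sex-discordant pair. It was 0.537 without female wt 1 and female wt 14, and 0.160 without female P278KY 4 and female wt 14.

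The genes whose log2 CPM was most like that of Slc6a5, among 15802 genes with a mean of at least 1 TPM, were Dock3 (r = 0.978), Creg2 (0.960), Stau2 (0.957) and Dnm3 (0.956). Those most like Glra1 were Slc4a8 (0.932), Plch1 (0.926) and Tmem215 (0.916). Those most like Slc6a9 were Hip1r (0.910), Acsbg1 (0.902) and Dbx2 (0.901). Those most like Gldc were Pnlip (0.845, and 0.565 without 2 libraries) and Pop7 (0.839).

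Libraries with high or low values of the 7 genes occurred in both genotypes. In the library labelled female wt 14 all 7 lay below their own mean, by 0.33 on the log2 scale on average, and 5 of them were at their lowest. All 7 also lay below their mean in male wt 19 and in female P278KY 10. None of the 7 lay below its mean in female P278KY 4 (0.20 above on average), in male P278KY 3 (0.11 above) or in male wt 6 (0.19 above). In female wt 1 the average was 0.23 above, led by Glra3 (0.65) and Glra1 (0.42), while Glra2 and Glrb lay below their means. The summed TPM of 10 sensory ganglion markers was 72.5 to 88.1 in P278KY cords and 69.4 to 390 in wt cords, with the highest value in female wt 14, and the next highest wt value was 106. The summed TPM of 10 pan-neuronal genes was 3565 to 4260 in P278KY cords and 3432 to 4561 in wt cords. Skeletal muscle markers summed to 92.4 to 2862 TPM (median 700) in P278KY cords and 12.3 to 1103 TPM (median 46.1) in wt cords, and Schwann cell markers to 129 to 2568 TPM in P278KY cords and 328 to 3432 TPM in wt cords. All 10 muscle genes had a log2 fold change above 0 (median 2.74, 5 with an unadjusted p under 0.05), all 9 tested ganglion genes one below 0 (median -1.37) and 9 of 10 Schwann cell genes one below 0 (median -0.73), with 0 called by edgeR or DESeq2 in each list. These fold changes include female wt 14 and male wt 19, and none is given without them. No gene of these 3 lists averaged under 0.1 TPM.

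With a muscle score or a ganglion score as a further term in the edgeR fit, 0 of the 9 glycine genes were called. The log2 fold change of Glra2 was 0.28 with the muscle score and 0.09 without it. With the ganglion score, that of Glra1 was -0.23, against -0.10 without it, and that of Glra3 was -0.29, against -0.09 without it.

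**Figure D4:**
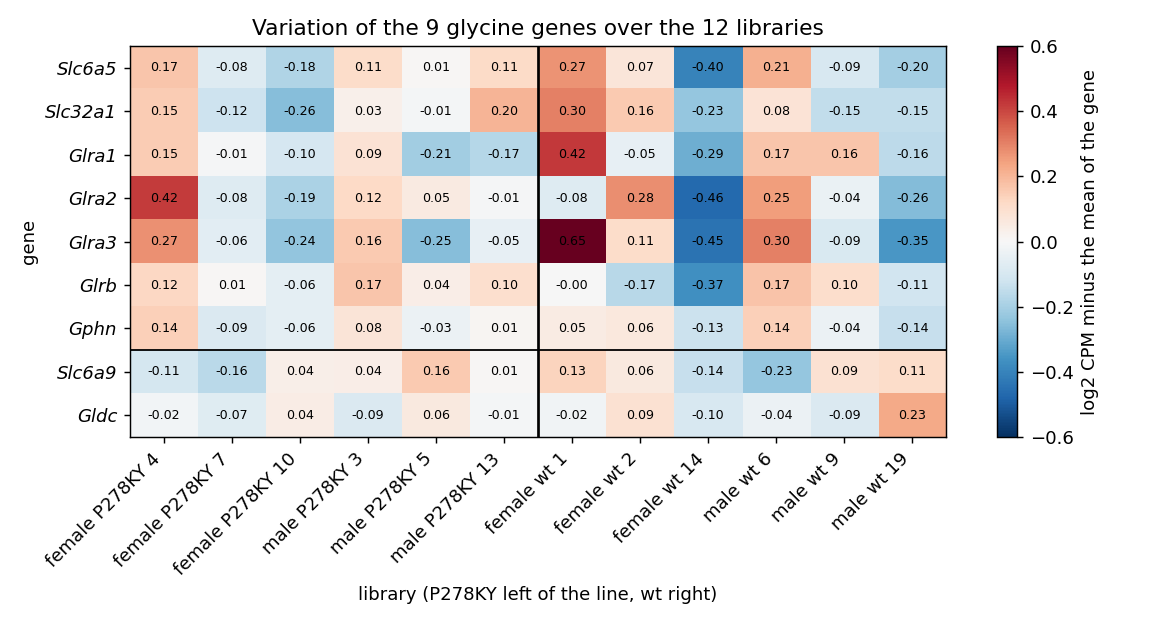
Log2 CPM of each of the 9 genes minus its mean over the 12 libraries, P278KY left of the line and wt right, with the 7 genes used by neurons above the line and Slc6a9 and Gldc below it. In female wt 14 all 7 lie below their mean, by 0.33 on average, while in female wt 1 they average 0.23 above, with 2 of the 7 below.

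The other genes of the pathway were likewise not called. Of 13 tested genes of glycine metabolism, which include the partners of Gldc in the cleavage system (Amt, Gcsh, Dld) and the serine hydroxymethyltransferases that make glycine from serine, 4 lay above 0 and 9 below, with a median log2 fold change of -0.02 and 0 called. Of 7 other glycine carriers and Glra4, 2 lay above 0 and 5 below, with a median of -0.12, beside -0.01 over all genes. Among these Glra4, a further alpha subunit gene, had a log2 fold change of 0.79 ± 0.32 and Slc1a4, a carrier of small neutral amino acids, 0.13 ± 0.06 (SE), neither past the adjusted threshold (adjusted p = 1.00 each by edgeR). These 2 of the 7 had an unadjusted p under 0.05 by edgeR, as 4.09% of all genes did. Slc7a10 had the next smallest p and lay below 0, at -0.14 ± 0.07 (SE). Glra4 was scarce, at 0.463 ± 0.148 CPM in P278KY cords and 0.266 ± 0.109 CPM in wt cords (SD, n = 6 each). Of 9 genes of the NMDA receptor, which uses glycine as a co-agonist, and its other co-agonist, 0 were called (median -0.04). Grin3b alone of them had an unadjusted p under 0.05 by edgeR, with a log2 fold change of -0.42 ± 0.19 (SE). The 11 tested GABA-A receptor subunits had a median of 0.06 with 0 called, and the 8 tested genes of the inhibitory scaffold and of molybdenum cofactor synthesis, for which gephyrin is also an enzyme, had a median of -0.02 with 0 called. The 8 genes of GABA synthesis, GABA uptake and chloride transport had a median of -0.01, and the 11 tested transcription factors of inhibitory interneurons a median of 0.00, with 0 called in either. DESeq2 called 0 in each of these lists.

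**Figure D5:**
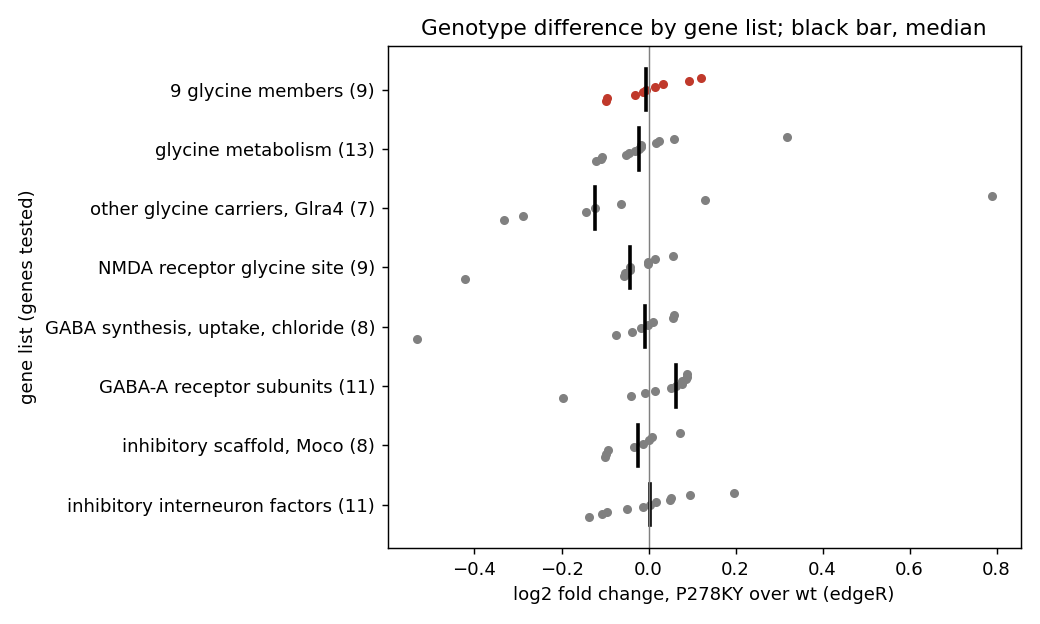
Log2 fold change of P278KY over wt for each tested gene of 8 lists, 1 point per gene, with the median as a black bar; the 9 glycine genes are in red. Every median lies between -0.12 and 0.06, beside -0.01 over all genes tested.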

How the data were processed

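RNA-seq was made from 12 spinal cords. Per the file headers, the authors deposited for every gene an expected count, which estimates fragments and can be fractional. They also deposited TPM, a level corrected by the authors for length and depth, and the transcript length itself. The submitters' processing notes list Bowtie2 2.2.0 and RSEM 1.2.12. Genome build, annotation and strand use in counting were not given in the sources used. Reads of the genes that overlap Slc6a9, Glra1, Glra3, Gphn, Slc32a1 and Gldc on the other strand may therefore be shared with them. Gphn is also overlapped on its own strand. These overlaps are of whole gene spans, introns included.

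Expected counts were rounded, filtered by filterByExpr over the 4 groups, scaled by TMM and tested with edgeR 4.0.16 quasi-likelihood in R 4.3.3, with labelled sex as a term, Benjamini-Hochberg adjustment over 17995 genes and a threshold of 0.05. Within-sex effects and their difference came from a fit of 4 group means. Log2 length was tested with limma 3.58.1, and DESeq2 1.42.0 stood beside edgeR. The edgeR genotype fit and the length test were also run on simulated data, with results not given here. The other fits were not simulated. Replicates are separate mice. Likeness is Pearson's r of log2 CPM (prior count 2) over 12 libraries, described with no p. Positions come from GENCODE M21 on GRCm38. Named genes are the members, the 4 genes most like the chosen members (fewer are printed here), and the genes of the lists with the smallest p. The members were taken by symbol and not by their values, but members and lists were chosen with earlier results of these data known.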

Additional observations from a re-analysis of the deposited data

Results flagged for a closer look

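Of 28 groups of 6 libraries examined for a value far from the others, over the CPM and transcript length of the 9 genes, 1 held such a value. The transcript length of Glrb was 2883 bases in male P278KY 13, and the nearest other P278KY library had 2943 bases, a gap of 0.74 of the range, above the 95% critical value of the Dixon test. Such a rule also picks out some groups by chance.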

How the results depend on the processing

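The count of members called stayed at 0 under every alternative run, for genotype, within each sex, for the difference between the sexes, for sex and for transcript length. All genes called by genotype numbered 1 in the fit as reported, 0 under a filter of CPM above 1 in 6 libraries, 33 with DESeq2, 2 without the sex term, 3 with a sensory ganglion score as a term, 0 without both sex-discordant libraries, and 1 to 3 when each library was left out in turn. Several fold changes near 0 changed sign. Gphn was at -0.0217 with limma on log2(TPM + 1), -0.0221 on log2(TPM + 0.1), -0.0342 with the sensory ganglion score and -0.0455 without both libraries. Slc6a5 was at -0.0947 with that score and -0.0929 without both libraries, Glra2 at -0.0423 and -0.0469, and Slc32a1 at 0.0119 with a skeletal muscle score. Other fits moved a fold change without changing its sign. Such moves were seen for Glra2 with the muscle score (0.280, beside 0.0933 as reported), and for Glra1 (-0.234, beside -0.0987) and Glra3 (-0.286, beside -0.0945) with the ganglion score. Only Glra1 and Glrb kept their sign under every alternative run. The correlations without the sex-discordant pair were added after seeing the data. Leaving out each library in turn gave -0.0329 to 0.107 for Slc6a5, -0.0674 to 0.0229 for Slc6a9, -0.169 to -0.00654 for Glra1, -0.00337 to 0.178 for Glra2, -0.189 to 0.0554 for Glra3, 0.0741 to 0.155 for Glrb, -0.0173 to 0.0499 for Gphn, -0.0534 to 0.0623 for Slc32a1 and -0.0549 to 0.0181 for Gldc. The cause was not tested. No paired analysis was run, because the sample labels used give no litter or other pairing of mice. With 6 mice per genotype, the intervals of the 9 genes limit what can be seen, most of all for Glra3.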
